A study of Mus musculus with 5 samples.

Results

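The 8 keratin genes described here were taken by symbol from the deposited expression tables of cells sorted from adult mouse pancreas. They are 6 keratins of simple epithelium (Krt7, Krt8, Krt18, Krt19, Krt20 and Krt23) and 2 of the basal layer of stratified epithelium (Krt5 and Krt14). All 5 tables hold 16992 symbols in common, and 7 of the 8 genes are among these. The table of 1 library has no row for Krt5. The cells came from C57BL/6 mice aged 2 to 4 months and were sorted as CD133(positive)CD71(negative), with 2 libraries, or CD133(high)CD71(low), with 3 libraries. These are called the CD71(negative) and CD71(low) groups below. The sort markers are the products of Prom1 (CD133, a membrane glycoprotein) and Tfrc (CD71, the receptor that takes up transferrin). A further label describes the CD71(low) cells as positive for both markers. The labels name no treatment beyond the sort, and whether libraries come from different animals is not stated, so the p-values reflect only how these libraries vary, and that variation could be technical.

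Values are RPKM, reads scaled by transcript length and library depth, a unit inferred from the values themselves. Fold changes are CD71(low) minus CD71(negative) on the scale log2(RPKM + 1), tested with limma over 11769 genes and called at a Benjamini-Hochberg adjusted p under 0.05. Depth was estimated from the steps between low values at 19.8 to 41.9 M reads per library. The table of CD71(low) library 3 rests on a different set of gene models. Its values correlated less with those of libraries 1 and 2 (r = 0.911 and 0.920 over genes) than these did with each other (r = 0.994). The pancreatic duct list, 16 genes such as Sox9 and Cftr, was present in both groups, with sums of 2918 to 3172 RPKM in CD71(negative) and 4012 to 6169 in CD71(low). Most of each sum was Spp1, at 2286 and 2425 against 2895, 2963 and 4846, which did not pass (limma adjusted p = 0.227). Sox9 measured 36.2 and 44.3 against 65.5, 69.7 and 89.8. Cftr overlapped between groups, at 5.87 and 7.36 against 5.95, 5.84 and 18.2. Prom1 measured 45.8 and 48.8 in CD71(negative) and 72.8, 74.7 and 133.3 in CD71(low), and did not pass (limma adjusted p = 0.0909). Tfrc measured 4.00 and 4.36 against 5.34, 6.84 and 12.2 and did not pass either (limma adjusted p = 0.151). Without library 3 both were called higher, as were 40.9% of all genes. Their log2 fold changes were then 0.63 for Prom1 (limma adjusted p = 0.00021) and 0.45 for Tfrc (0.0112).

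Keratins are the intermediate filament proteins of epithelial cells. A filament is built from pairs of one type I and one type II chain, so a cell needs both kinds. Krt8 (type II) and Krt18 (type I) are the founding pair of simple epithelia and occur in acinar and duct cells of the pancreas, whereas Krt7 (type II) and Krt19 (type I) are widely used as markers of duct cells. Krt20 (type I) marks gut and urothelial cells, and Krt23 is a less studied type I keratin. Krt5 (type II) and Krt14 (type I) form the pair of basal keratinocytes and other basal epithelial cells.

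The genes lie in 2 clusters (GENCODE, mm10). Krt19 (chromosome 11, 100140810 to 100148665), Krt20 (99428403 to 99438150), Krt23 (99477974 to 99493137) and Krt14 (100203162 to 100207548) belong to the type I cluster. Krt7 (chromosome 15, 101411043 to 101430313), Krt5 (101707070 to 101712898) and Krt8 (101996698 to 102004482) belong to the type II cluster. Krt18 (chromosome 15, 102028180 to 102032027) is the type I gene that lies outside the type I cluster. It starts 23.7 kb from the start of Krt8, and the pair are read in opposite directions away from each other.

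RefSeq promoters (build GRCm38.p6) were found for 7 of the 8 genes, all but Krt19. Shown 5′ to 3′ are windows from 250 bases before to 30 bases after the RefSeq start of 4 keratins that had high levels and of Krt20, which was close to undetected. They were chosen with these levels known. Capitals mark matches on either strand to TATAAA (the TATA box letters) or GGGCGG (the GC box letters).
Krt8: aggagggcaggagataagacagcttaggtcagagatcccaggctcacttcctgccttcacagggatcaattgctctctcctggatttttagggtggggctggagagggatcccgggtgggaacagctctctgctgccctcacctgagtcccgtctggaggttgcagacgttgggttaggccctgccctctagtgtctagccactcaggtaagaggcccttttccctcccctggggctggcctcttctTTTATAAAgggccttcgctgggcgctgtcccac
Krt18: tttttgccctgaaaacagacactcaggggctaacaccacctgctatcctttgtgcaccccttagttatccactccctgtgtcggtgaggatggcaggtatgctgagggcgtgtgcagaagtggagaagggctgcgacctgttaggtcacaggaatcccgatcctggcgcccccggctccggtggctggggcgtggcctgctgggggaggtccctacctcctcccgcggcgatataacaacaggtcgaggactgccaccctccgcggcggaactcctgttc
Krt7: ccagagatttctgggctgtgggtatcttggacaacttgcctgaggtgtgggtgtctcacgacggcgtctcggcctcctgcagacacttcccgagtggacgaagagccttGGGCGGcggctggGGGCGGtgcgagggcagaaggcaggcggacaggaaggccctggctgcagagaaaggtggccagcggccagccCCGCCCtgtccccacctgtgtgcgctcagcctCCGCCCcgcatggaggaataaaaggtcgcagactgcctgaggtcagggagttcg
Krt23: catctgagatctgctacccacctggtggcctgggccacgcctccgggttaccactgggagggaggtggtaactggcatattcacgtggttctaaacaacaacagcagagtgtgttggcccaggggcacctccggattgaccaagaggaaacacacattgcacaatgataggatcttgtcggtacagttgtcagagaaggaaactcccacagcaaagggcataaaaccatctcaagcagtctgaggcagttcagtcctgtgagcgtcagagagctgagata
Krt20: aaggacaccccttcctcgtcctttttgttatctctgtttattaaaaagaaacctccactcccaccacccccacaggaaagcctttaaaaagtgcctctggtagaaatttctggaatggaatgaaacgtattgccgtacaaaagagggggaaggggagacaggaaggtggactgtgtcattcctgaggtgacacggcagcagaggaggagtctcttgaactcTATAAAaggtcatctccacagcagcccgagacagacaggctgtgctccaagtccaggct
The windows are chr15:102004313-102004592 (minus strand) for Krt8, chr15:102027966-102028245 (plus strand) for Krt18, chr15:101412153-101412432 (plus strand) for Krt7, chr11:99493091-99493370 (minus strand) for Krt23 and chr11:99438124-99438403 (minus strand) for Krt20. TATAAA was found in Krt20, from base -29 to -24 relative to the start, and in Krt8, where it spans the annotated start from base -1 to 5 and overlaps its own reverse complement. It was found in 13.1% of all 32851 promoter windows of this length. GGGCGG was found 4 times in Krt7, 2 times on each strand, and in 34.7% of all windows. The windows of Krt18 and Krt23 held neither. CCAAT and TGANTCA (the AP-1 letters), also searched on both strands, were found in none of the 7 keratin windows, against 36.1% and 7.5% of all windows. TATAAA thus occurred both in the keratin with the highest level, Krt8, and in Krt20.

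Both sorted populations expressed 5 of the 6 simple-epithelium keratins strongly, whereas Krt20 and the basal keratins were close to nothing. In each of the 5 libraries the order was Krt8, Krt18, Krt19, Krt23 and Krt7. Krt8 measured 382.4 and 392.7 RPKM in CD71(negative) and 642.1, 602.0 and 658.9 in CD71(low), above at least 99.6% of the common genes in every library. Krt18 measured 292.2 and 287.5 against 499.0, 485.8 and 528.1, and Krt19 measured 74.6 and 81.4 against 155.7, 142.0 and 149.2. For these 3 genes the libraries of a group lay close together and the groups did not overlap. Krt23 measured 52.7 and 54.9 against 82.8, 82.6 and 87.5, again without overlap. Krt7 measured 30.8 and 36.2 against 76.7, 76.1 and 42.4. Library 3 of CD71(low) was thus far below the other two libraries of its group in Krt7, though still above both CD71(negative) libraries. The means of Krt23 (84.3 ± 2.77, SD, n = 3) and Krt7 (65.1 ± 19.6, SD, n = 3), neighbours in that order in CD71(low), differed by less than the spread of Krt7.

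**Figure D1:**
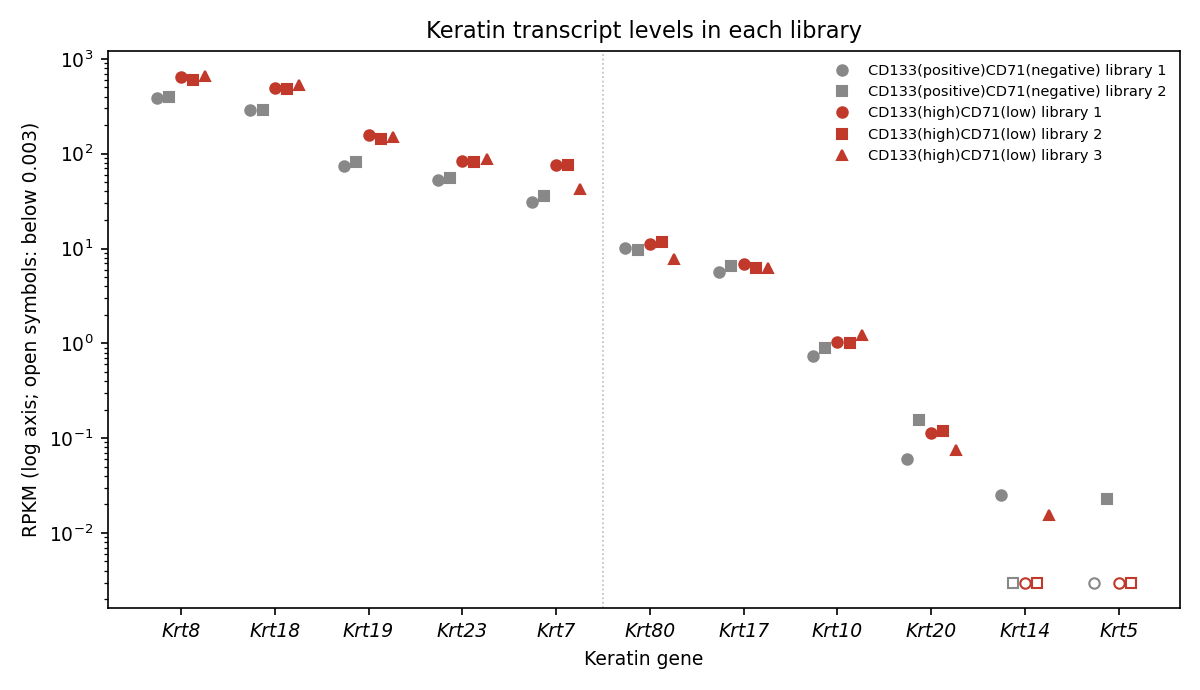
RPKM of 11 keratins (log axis) in each library, grey for CD133(positive)CD71(negative) and red for CD133(high)CD71(low), with open symbols at the lower edge for values below 0.003. The 5 genes left of the dotted line lie between 30.8 and 658.9 RPKM, and Krt20, Krt14 and Krt5 reach at most 0.157. Krt5 has no value in library 3 of CD133(high)CD71(low).

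Krt20 was listed at 0.061 and 0.157 RPKM in CD71(negative) and at 0.113, 0.117 and 0.074 in CD71(low). At the estimated depths this comes to about 3.00, 5.99, 6.99, 6.99 and 6.00 reads. The groups overlapped, and the gene was not tested because its mean was under 1. Krt14 was listed at 0.025 and 0.00019 in CD71(negative) and at 0, 0 and 0.016 in CD71(low), about 1.10 reads where it was highest. Krt5 was listed at 0 and 0.023 in CD71(negative) and at 0 in CD71(low) libraries 1 and 2, and its highest value comes to about 1.00 read. No difference in Krt5, Krt14 or Krt20 was detectable at this depth.

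Other genes of basal and stratified epithelium were mostly low as well. Of the 15 genes of that list 11 were in all tables and 4 had a mean of at least 1, among them Krt17, the integrin gene Itgb4 and Sfn, encoding 14-3-3 sigma. The list also holds Ly6d, at 2.33 and 3.21 in CD71(negative) and 1.31, 0.61 and 0.24 in CD71(low). In limma 0 of the 4 passed in either direction, where 6.25% of all tested genes were called higher and 7.22% lower. At an unadjusted p under 0.05 there were 1 higher and 1 lower, against 3235 and 1080 of all 11769 genes. Without library 3, Sfn was called higher (log2 fold change 0.56, limma adjusted p = 0.0015) and Ly6d lower (-0.96, 0.0021). In that fit 40.9% of all genes were called higher and 12.2% lower. Col17a1, encoding the hemidesmosomal collagen XVII of basal cells, was at most 0.046 and Dsc3, a desmosomal cadherin gene of stratified epithelium, at most 0.029.

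Most of the expressed simple-epithelium keratins were higher in CD71(low) cells. Of the 8 genes 5 had a mean of at least 1 and were tested, and 4 of these 5 rose, where 6.25% of all tested genes were called higher. None of the 5 fell in limma (7.22% of all genes were called lower), and at an unadjusted p under 0.05 the counts were 5 higher and 0 lower. Over all genes the adjusted calls were 735 higher and 850 lower (227 and 1141 with median-of-ratios scaling), and at an unadjusted p under 0.05 there were 3235 higher and 1080 lower. In all 5 keratins every CD71(low) library lay above both CD71(negative) libraries, as in 58.2% of all tested genes. Their median log2 fold change was 0.80, against 0.31 over all tested genes. In such bulk samples, more keratin-expressing cells and more keratin RNA per cell cannot be told apart.

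Among the keratins the largest called change was in Krt19, the type I keratin of duct cells, with a mean 1.91 times as high in CD71(low) (78.0 ± 4.79, SD, n = 2, against 149 ± 6.86, SD, n = 3; log2 fold change 0.92, SE 0.12, limma adjusted p = 0.0089). Krt18 had a mean of 290 ± 3.33 in CD71(negative) and 504 ± 21.6 in CD71(low), and rose by 0.80 on the log2 scale (SE 0.14, limma adjusted p = 0.0204). Its partner Krt8 had means of 388 ± 7.25 and 634 ± 29.2 and rose by 0.71 (SE 0.14, limma adjusted p = 0.0327). Krt23 had means of 53.8 ± 1.53 and 84.3 ± 2.77 and the smallest called rise, 0.64 (SE 0.11, limma adjusted p = 0.0206). The 95% confidence intervals of these 4 changes overlapped one another, from 0.62 to 1.23 for Krt19 at one end and from 0.36 to 0.91 for Krt23 at the other.

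Krt7, the type II keratin of duct cells, did not pass over all libraries (33.5 ± 3.85 against 65.1 ± 19.6, log2 fold change 0.89, SE 0.29, limma adjusted p = 0.095). Without library 3 of CD71(low) its log2 fold change was 1.17 (limma adjusted p = 1.04e-05), and all 5 tested keratins rose, with 40.9% of all genes then called higher. Leaving out CD71(low) library 1 or 2 left 1 called keratin, Krt19 (limma adjusted p = 0.0468 and 0.0484). In these fits 89 and 40 of all genes were called higher. Leaving out either CD71(negative) library leaves 1 in that group. The log2 fold changes of the 5 keratins were then 0.61 to 1.01.

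The calls also depended on how libraries were scaled. With median-of-ratios scaling the median over all genes was 0.02 instead of 0.31. It left 0 of the 5 keratins called, with fold changes of 0.30 for Krt23 to 0.58 for Krt19. With this scaling and without library 3 all 5 were called. Quantile normalization left 2, Krt18 and Krt19. Processed pseudogenes in the GENCODE annotation share 98.6% identity over 941 bases with Krt8 (Krt8-ps) and 90.5% over 1267 bases with Krt18 (Gm5200), and neither is in the tables, so how their reads were assigned is unknown. Noncoding genes on the opposite strand overlap Krt7 (Gm671), Krt8 (Gm36026) and Krt5 (Gm44323), and none of them is in the tables either. No such copy was found for Krt19, Krt7 or Krt23 at 90% identity over 200 bases.

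**Figure D2:**
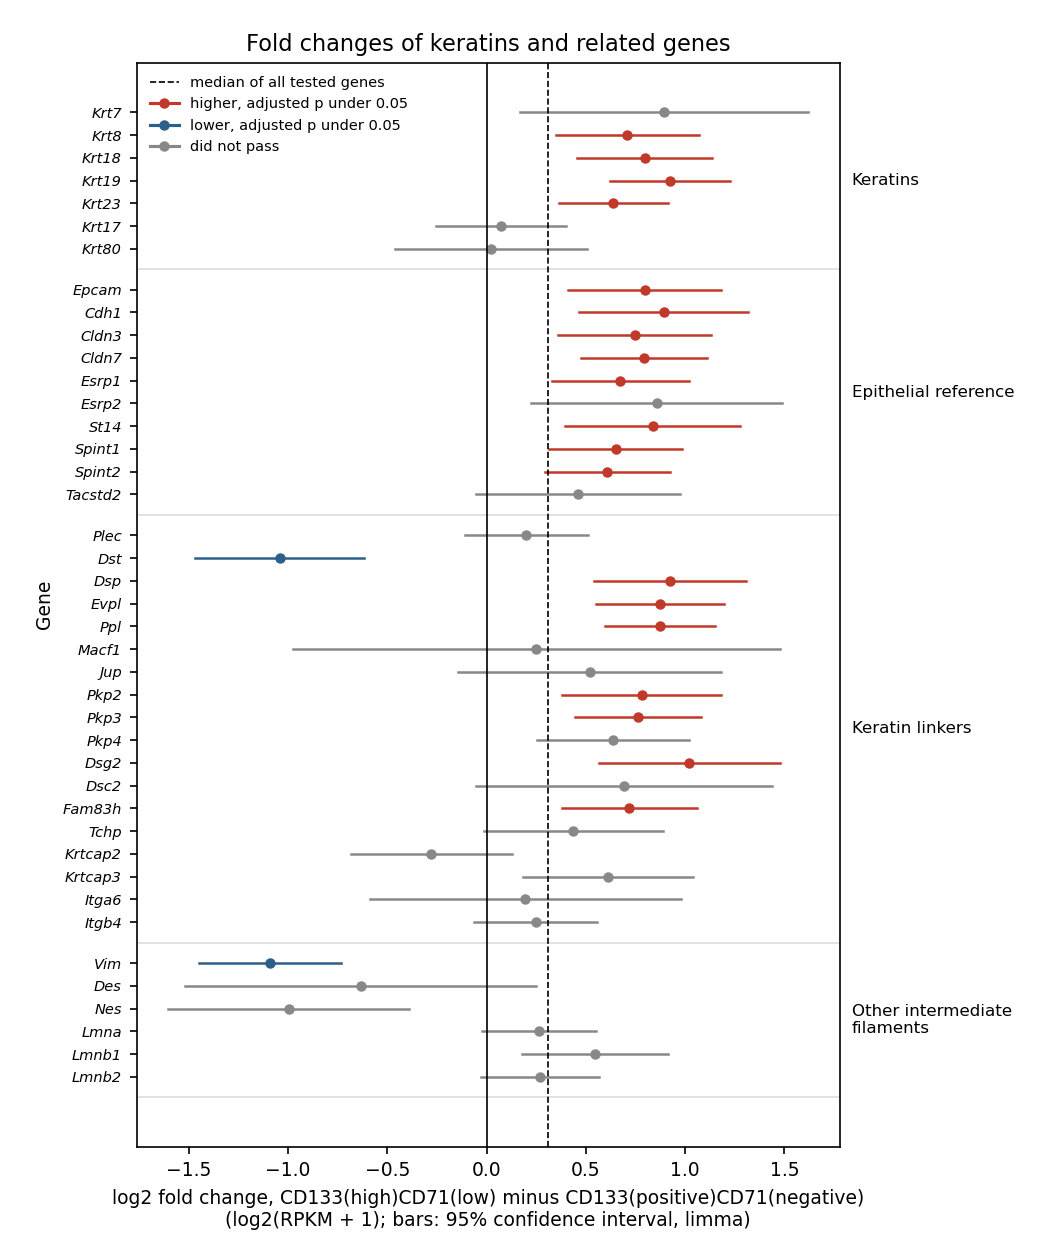
Log2 fold change of each tested keratin, epithelial reference gene, keratin-linking gene and other intermediate filament gene (points) with its 95% confidence interval from limma (bars), positive where CD133(high)CD71(low) was higher than the other group. Krt8, Krt18 and Krt23 lie between 0.64 and 0.80, among the epithelial reference genes. Krt19 lies at 0.92, above the highest of those genes (Cdh1, 0.89). These keratins lie above the median of all genes (dashed, 0.31), whereas Krt17 and Krt80 lie near 0 and Vim lies at -1.09. When each library is scaled to the epithelial genes, Krt8 and Krt23 turn to -0.08 and -0.14.

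A reference list of 10 genes shared by epithelia was used to ask whether keratins changed beyond the epithelium at large. It holds Epcam and Cdh1, encoding the adhesion proteins EpCAM and E-cadherin, the claudin genes Cldn3 and Cldn7, the splicing factor genes Esrp1 and Esrp2, and protease and protease inhibitor genes. Of all tested genes 6.25% were called higher and 7.22% lower. Of the 10 members of this list 8 rose and 0 fell in limma (9 and 0 at an unadjusted p under 0.05). Their median log2 fold change was 0.77. With median-of-ratios scaling 2 rose and the median was 0.43. Epcam measured 96.7 and 116.6 RPKM in CD71(negative) and 167.2, 187.7 and 201.6 in CD71(low). These genes thus moved by about as much as the keratins did.

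Divided by the geometric mean of this list in the same library, Krt18 hardly differed between groups. The ratio was 8.93 and 8.09 in CD71(negative) and 8.65, 8.55 and 8.46 in CD71(low), a difference of 0.01 on the log2 scale. Krt8 stood at 11.7 and 11.05 against 11.1, 10.6 and 10.6, a difference of -0.08 with overlapping groups. Krt19 was the tested keratin whose ratio was higher in each CD71(low) library, at 2.28 and 2.29 against 2.70, 2.50 and 2.39 (difference 0.14). Krt23 was lower in each, at 1.61 and 1.54 against 1.43, 1.45 and 1.40 (difference -0.14). Krt7 split the CD71(low) group, at 1.33 and 1.34 in libraries 1 and 2 and 0.680 in library 3, against 0.940 and 1.02 in CD71(negative). With 2 libraries against 3, the exact two-sided permutation test cannot go below p = 0.2. Krt19 and Krt23 reached that value, and after adjustment over the 6 keratins without a value of 0, p was 0.6 for both.

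**Figure D3:**
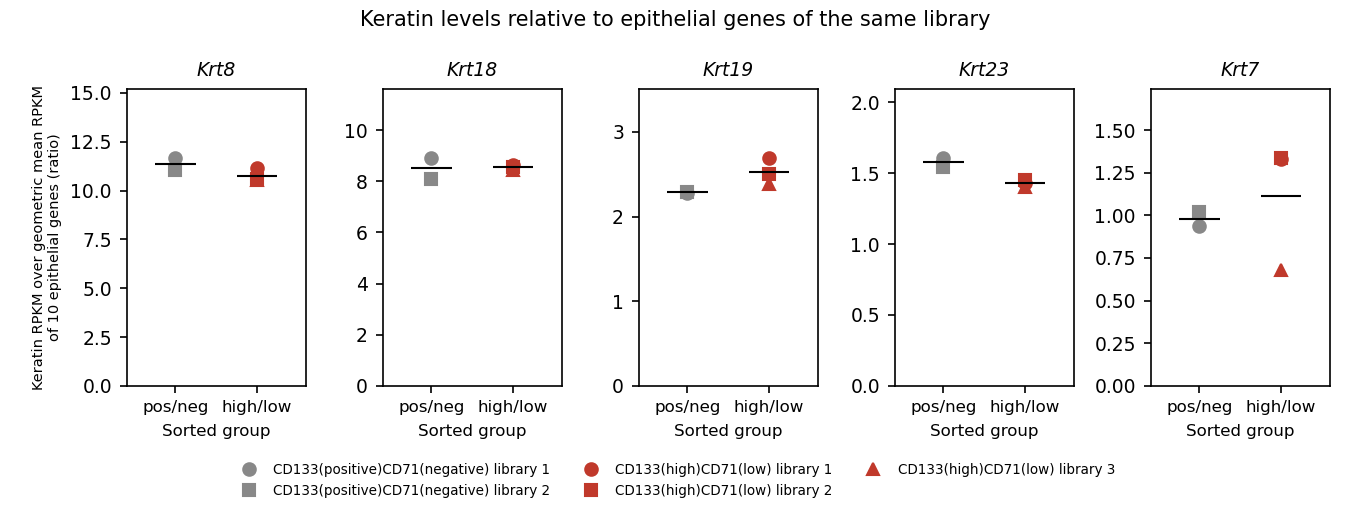
RPKM of 5 keratins divided by the geometric mean RPKM of 10 epithelial genes in the same library (vertical axes from 0), by sorted group, with group means as black lines. Krt18 sits between 8.09 and 8.93 in all libraries, Krt19 is above 2.29 in the 3 CD133(high)CD71(low) libraries alone, and Krt7 is at 0.680 in library 3 of that group.

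Ratios between keratins of one library are not changed by multiplying the library by a factor, though quantile normalization does change them. With it, Krt18 and Krt19 had nearly equal log2 fold changes of 0.72 and 0.71. Krt8 was 1.31 and 1.37 times as high as Krt18 in CD71(negative) and 1.29, 1.24 and 1.25 times in CD71(low), a slightly lower ratio in every CD71(low) library. Krt19 over Krt8 was 0.195 and 0.207 in CD71(negative) and 0.243, 0.236 and 0.226 in CD71(low), so that Krt19 made up more of the pool in CD71(low). Krt23 over Krt19 was 0.706 and 0.674 in CD71(negative) and 0.531, 0.582 and 0.586 in CD71(low). The groups did not overlap in these 3 ratios. Each had the smallest exact permutation p the design allows, 0.2, and an adjusted p of 0.467 over the 7 ratios compared. Krt19 over Krt18, Krt7 over Krt18, Krt7 over Krt19 and Krt20 over Krt19 overlapped between groups. Krt7 over Krt19 was 0.412 and 0.445 in CD71(negative), 0.492 and 0.536 in CD71(low) libraries 1 and 2, and 0.284 in library 3. Without library 3 the difference in this last ratio turned from -0.02 to 0.26 on the log2 scale.

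The type I and type II keratins summed to nearly equal levels in both groups, a comparison added after the values were seen. Among the 26 keratin genes with a row everywhere, 8 reached 1 RPKM in some library, and they are 5 type I genes (Krt10, Krt17, Krt18, Krt19 and Krt23) and 3 type II genes (Krt7, Krt8 and Krt80). In CD71(negative) the type I genes summed to 426.0 and 431.3 RPKM and the type II genes to 423.3 and 438.5. In CD71(low) the type I sums were 745.4, 717.6 and 772.3 and the type II sums 729.9, 689.7 and 709.0. The ratio of type I to type II was thus 1.01 and 0.984 in CD71(negative) and 1.02, 1.04 and 1.09 in CD71(low), highest in library 3, where Krt7 was low. Its values did not overlap between groups, and the exact permutation p was 0.2, the smallest possible. Krt8 alone exceeded Krt18 in every library, and Krt19 and Krt23 made up most of the rest of the type I sum. Krt8 and Krt18 together gave 77.3% to 80.1% of all keratin RPKM.

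**Figure D4:**
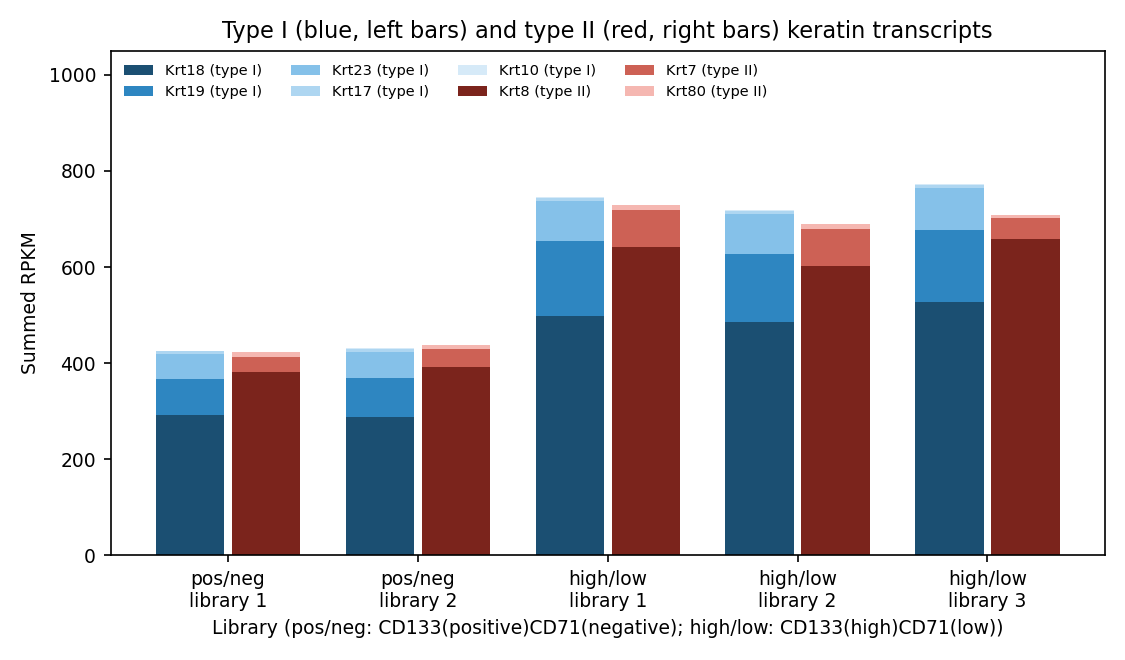
Summed RPKM of type I keratins (blue, left bar) and type II keratins (red, right bar) in each library, stacked by gene. The bars of a library are nearly equal in height, with a type I to type II ratio from 0.984 to 1.09, and both are taller in the CD133(high)CD71(low) libraries.

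Of the remaining keratins 3 reached 1 RPKM in some library, and neither of the pair that was tested was called. Krt80, a type II keratin, measured 10.1 and 9.60 RPKM in CD71(negative) and 11.1, 11.6 and 7.73 in CD71(low). Krt17, a type I keratin of basal and stressed epithelium, measured 5.66 and 6.57 against 6.95, 6.22 and 6.26. Both genes overlapped between groups, with log2 fold changes of 0.02 (95% confidence interval -0.46 to 0.51, limma adjusted p = 0.932) and 0.07 (-0.25 to 0.40, limma adjusted p = 0.659). Their direction depended on scaling. When libraries were scaled to the epithelial reference list, Krt17 fell by 0.61 on the log2 scale (limma adjusted p = 0.0127), and the value of Krt80 was -0.70 (limma adjusted p = 0.055). Krt17 shares 91.0% identity over 756 bases with a transcript of Krt14. Krt14 came to at most about 1.11 reads in any library, and Krt17 to about 202 to 407. How reads of the shared stretch were assigned was not tested. Krt10, a keratin of differentiated epidermis, measured 0.731 and 0.892 against 1.03, 1.01 and 1.23 and had a mean under 1, so it was not tested. Its CD71(low) libraries all lay above both CD71(negative) libraries. It overlaps an antisense gene that is also in the tables, and whether counting used strand is not given in the sources used here. Of 34 keratin symbols in any table, the other 26 (with Krt5, Krt14 and Krt20 among them) stayed under 0.5 RPKM in every library that lists them.

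Some of the genes that link keratin filaments to cell junctions rose as well. Of 18 tested members of a list of linkers 7 rose and 1 fell, with a median log2 fold change of 0.62. Over all tested genes 6.25% were called higher and 7.22% lower, with a median of 0.31. Ppl, encoding the cytolinker periplakin, measured 9.96 and 10.8 RPKM in CD71(negative) and 19.5, 19.6 and 20.5 in CD71(low) (log2 fold change 0.87, SE 0.11, limma adjusted p = 0.00815). Evpl, encoding its relative envoplakin, rose by 0.87. Dsp, encoding desmoplakin, which ties keratins to desmosomes, measured 27.4 and 29.2 against 51.0, 49.5 and 64.1 and rose by 0.92. The desmosomal cadherin gene Dsg2 had the highest levels of the list in CD71(low), at 134.3, 133.9 and 182.1 against 68.8 and 76.8, and also rose.

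The hemidesmosomal linkers of the same list were not called higher over all libraries. Plec, encoding plectin, measured 16.3 and 17.2 against 21.4, 19.0 and 18.0 and did not pass (log2 fold change 0.20, limma adjusted p = 0.263). Without library 3 it was called higher (0.25, limma adjusted p = 0.0405), close to the median of 0.20 over all genes in that fit. Itgb4 did not pass in either case, with a log2 fold change of 0.25 in both. With median-of-ratios scaling the values turned to -0.12 for Plec and -0.080 for Itgb4. Dst, encoding dystonin, whose forms also link other filaments in nerve and muscle, measured 4.56 and 4.21 against 2.04, 1.66 and 1.21 and fell (log2 fold change -1.04, limma adjusted p = 0.0177). Without library 3, 13 linkers rose and 2 fell, where 40.9% of all genes were called higher and 12.2% lower. With median-of-ratios scaling 5 linkers rose and 1 fell, against 227 and 1141 over all genes. When libraries were scaled to the epithelial reference list, 0 linkers rose and 4 fell, against 28 and 4711 over all genes. Their median was then -0.13, against -0.37 over all genes.

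Vim, encoding vimentin, the intermediate filament protein of mesenchymal, endothelial and blood cells, went the other way. It measured 142.5 and 126.3 RPKM in CD71(negative) and 59.9, 57.7 and 70.2 in CD71(low), and fell by 1.09 on the log2 scale (SE 0.14, limma adjusted p = 0.0089). The ratio of Krt18 to Vim was accordingly 2.05 and 2.28 in CD71(negative) and 8.33, 8.42 and 7.52 in CD71(low). Of 6 tested intermediate filament genes other than keratins Vim alone passed over all libraries, with a median log2 fold change of -0.19. The shares called over all tested genes were 6.25% higher and 7.22% lower, with a median of 0.31. The call on Vim was lost without either CD71(negative) library (limma adjusted p = 0.158 and 0.115) and without CD71(low) library 2 (0.0502). Nes, encoding nestin, measured 7.14 and 6.95 against 3.96, 3.45 and 1.97 (limma adjusted p = 0.0528). The lamin genes Lmna, Lmnb1 and Lmnb2, whose products line the nucleus of most cells, had log2 fold changes of 0.26, 0.55 and 0.27 and did not pass, and with median-of-ratios scaling those of Lmna and Lmnb2 turned to -0.069 and -0.0061. Without library 3, Lmna (limma adjusted p = 0.011) and Lmnb1 (0.0040) were called higher and Nes (0.00019) was called lower along with Vim. Of all genes, 40.9% were then called higher and 12.2% lower.

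Markers of cells that hold vimentin in place of keratins moved with these results. The sums of 16 leukocyte genes were 1648 to 1679 RPKM in CD71(negative) and 44.9 to 85.1 in CD71(low), and 14 of 15 tested fell. Those of 14 endothelial genes were 847 to 908 and 85.1 to 249, and all 14 fell. Those of 14 mesenchymal genes, Vim included, were 236 to 257 and 91.4 to 98.6, and 7 of 11 tested fell, Vim among them. Vim made up most of this sum in every library, so the sum largely repeats the fall of Vim. It was 142.5 and 126.3 in CD71(negative) and 59.9, 57.7 and 70.2 in CD71(low). Over all tested genes 6.25% were called higher and 7.22% lower. No gene of these 3 lists was listed at 0 in all CD71(low) libraries. The part of these cells in the differences of keratins and Vim was not tested. Of 15 acinar enzyme and transcription factor genes 0 passed in limma in either direction (0 higher and 0 lower at an unadjusted p under 0.05), with sums of 229444 to 254967 and 95683 to 214382. Their sum was lowest in library 3. In 10 of the 15 every CD71(low) library lay below both CD71(negative) libraries, against 12.0% of all tested genes. Without library 3, 3 of the 15 were called lower and 0 higher, where 12.2% of all genes were called lower. Of 11 tested endocrine genes 5 fell and 0 rose. Without library 3, 6 of 12 fell and 3 rose, where 12.2% of all genes were called lower and 40.9% higher. Among those that rose were Ins1 and Ins2, which encode insulin, by 0.95 and 0.85 on the log2 scale (limma adjusted p = 0.0025 and 0.0014). Over all libraries both overlapped between groups, and library 3 was the lowest, at 70.5 for Ins1 and 325 for Ins2. Of the tuft cell genes Dclk1 rose, and Alox5ap, which leukocytes also express, fell. Of 2 tested mesothelial genes, a cell type that also carries Krt7, Krt8, Krt18 and Krt19, Igfbp6 fell. That list summed to 7.37 and 8.25 RPKM in CD71(negative) and to 4.25 to 5.13 in CD71(low), with the mesothelial marker gene Msln at most 0.720. Igfbp6 was its largest member in CD71(negative), at 4.32 and 4.61 against at most 0.603 in CD71(low). Upk3b was higher in each CD71(low) library, at 0.462 and 0.693 against 1.228, 1.495 and 0.762. Gpm6a and Msln overlapped between groups. Wt1, Lrrn4 and Upk1b were lower in each CD71(low) library, and at most 0.192 in any library. Whether the share of mesothelial cells differed was not tested. Of the 16 duct genes 10 rose and 0 fell (12 and 0 at an unadjusted p under 0.05), with a median log2 fold change of 0.79. With median-of-ratios scaling 4 rose and the median was 0.45.

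Likeness between profiles was measured as the root mean square difference of log2(RPKM + 1), each profile centred on its mean over the 5 libraries. Each was compared with 7460 other genes with a mean of at least 5, leaving out Gm, Rik, Mir, Snor and accession-like symbols. The nearest to Krt19 among them were Cgn (0.022), encoding the tight junction protein cingulin, Glis2 (0.026), encoding a zinc finger transcription factor, and Scara3 (0.037). Cgn measured 32.0 and 35.2 RPKM in CD71(negative) and 65.2, 60.6 and 65.1 in CD71(low). The nearest to Krt8 were Dopey2 (0.014), St3gal4 (0.022), encoding a sialyltransferase, and Rhod (0.024), encoding a small GTPase. The nearest to Krt18 were Vasn (0.029), Tstd1 (0.033) and Rhod (0.034).

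Krt8 was 20th in likeness to Krt18 of the 7460, and Krt23 was 23rd in likeness to Krt8. Krt7 was not close to any of them, with its nearest keratin, Krt19, at a distance of 0.311 (127th). Krt8, Krt18, Krt19 and Krt23 lay 0.045 to 0.150 from one another. The genes nearest to Krt7 were Scx (0.096) and Nkx6-1 (0.17), encoding transcription factors, and Sod3 (0.14), encoding extracellular superoxide dismutase. Each shared the lower value of library 3. Scx measured 5.38 and 6.61 in CD71(negative), 14.6 and 15.2 in CD71(low) libraries 1 and 2, and 9.43 in library 3. Sod3 measured 10.8 and 12.1, then 33.6 and 31.9, and 17.9 in library 3. These genes were picked for likeness to Krt7 over all libraries, so their lower value in library 3 follows from the choice. How common such a value is among all genes was not examined. The part of the different gene models of library 3 in these values was not tested.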

How the data were processed

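The authors deposited 1 table per library with a value for each gene symbol. Partek software and the mm10 build were used, per the submitters' processing notes. The aligner and annotation were not given in the sources used here, nor was the unit. The deposited values behave as RPKM (or FPKM, which cannot be told apart): multiplied by transcript length, 59.0% to 62.6% of low values were whole reads to within 0.05, where 10% would be by chance, too few to recover counts. The steps gave 25.5 and 19.8 M reads for CD133(positive)CD71(negative) and 32.0, 30.9 and 41.9 M for CD133(high)CD71(low). A row that names no gene, in the table of library 3, was left out (74.2 M alignments).

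The 16992 symbols common to all tables were used. Values were transformed as log2(RPKM + 1), which understates changes of low genes, and the 11769 genes with a mean of at least 1 were fitted with limma 3.58.1 in R 4.3.3 (mean-variance trend, group as sole term). On simulated data with 200 changed genes it recovered 37% of log2 changes of 1 and 71% of those of 2 with all libraries (80% and 97% with the 4 numbered ones), and 5.3% and 1.1% of calls were false. The simulated errors were independent between genes, with no shift shared within a library, so these rates may not hold for the real data. Ratios were tested by exact permutation. Alternatives were other pseudocounts, filters and scalings, each library left out, and a replicate block. Near-identical transcripts were sought with blastn 2.17.0, and figures made with matplotlib 3.10.9. Library 3 is the CD133(high)CD71(low) library without a number in its title.

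The members, gene lists and tests were chosen with earlier results of these data known. The restriction of median-of-ratios scaling to genes with a mean of at least 1, the sums by keratin type, the promoter windows' 30 bases after the start and the motifs were set after values were seen. Genes named are all members, other keratins reaching 1 RPKM, up to 3 called genes with the smallest p and the highest gene of each list, and the 3 genes nearest to Krt7, Krt8, Krt18 and Krt19. Not all are named, 1 tuft cell gene is not reported here, and others were chosen after their values were seen.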

Additional observations from a re-analysis of the deposited data

How the results depend on the processing

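Of the 5 tested keratins, 4 rose in the reported analysis. Leaving out a CD133(positive)CD71(negative) library leaves 1, assumed to vary like the others. The count was 0 with median-of-ratios scaling, 2 with quantile normalization, 0 with scaling to the epithelial reference list, and 0 to 5 with each library left out, and 4 or 5 in the other alternatives. None of these 5 was called lower in any alternative run, whereas Krt17 was with epithelial scaling. Over all genes, 735 were higher and 850 lower. Median-of-ratios scaling gave 227 higher (1141 lower), scaling to the epithelial list 28 higher and 4711 lower, the numbered libraries with all their symbols 4780 and 1431, and median-of-ratios scaling without library 3 gave 1446 and 2122. No filter gave 1729 lower and a mean of at least 5 gave 315 lower. Leaving out each library gave 0 to 4785 higher and 154 to 1425 lower. With the replicate number as a block, 5 keratins were called (log2 fold change of Krt7 1.17), and 5325 genes were higher and 1492 lower, in a fit to which the unnumbered library 3 adds no group difference. Deviations of same-numbered libraries from their group means were uncorrelated (r = -0.02 across genes), so the numbers do not show a pairing.

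Scaling to the epithelial list turned Krt8 to -0.079 and Krt23 to -0.14. Krt17 turned to -0.22 with median-of-ratios scaling, -0.13 with quantile normalization, -0.61 with epithelial scaling and -0.11 with median-of-ratios scaling without library 3. Krt80 turned to -0.29, -0.24, -0.70 and -0.023 in the same settings. With each library left out, Krt17 ranged from -0.020 to 0.17 and Krt80 from -0.075 to 0.19. On the log2 scale the group difference of Krt7 over Krt18 then ranged from -0.051 to 0.43, of Krt7 over Krt19 from -0.19 to 0.26, and of the level over the epithelial list from -0.043 to 0.45 for Krt7 and from -0.063 to 0.080 for Krt18. No other ratio changed direction. Where a setting changed a result, the cause was not tested. Depth limits Krt5, Krt14 and Krt20, which rest on at most about 6.99 reads a library.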
